A study of Mus musculus with 24 samples.

Results

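The genes described here encode the machinery that makes and matures transfer RNA (tRNA): the subunits of RNA polymerase III, the factors that bring it to its genes, and the enzymes that trim, splice and export the new transcripts. The 48 members were chosen by name, as the rows of the gene tables whose Ensembl identifier carries the symbol of one of these genes, out of 55469 rows in each table. All 48 were found in both tissues, and all 48 in the brain and 47 in the liver passed the filter on low values (a mean of at least 10 normalised counts over the 12 samples of the tissue). The one that did not was Rpp25, a subunit of RNase P and RNase MRP, listed at 0 to 1.88 normalised counts in the livers and at 124 to 251 in the brains.

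RNA polymerase III transcribes tRNA genes, 5S ribosomal RNA and other short non-coding RNAs. At a tRNA gene, TFIIIC binds the promoter elements inside the gene and places TFIIIB upstream, TFIIIB recruits the polymerase, and Maf1 holds the polymerase back when nutrients or growth signals fall. The new tRNA is then bound by La (Ssb), cut at its 5′ end by RNase P and at its 3′ end by RNase Z (Elac2), given its CCA tail by Trnt1, spliced where it carries an intron and exported by exportin-t (Xpot).

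RNA was sequenced from the brains and livers of WT mice and of mice homozygous for the loss of one phenylalanine tRNA gene (the tRNA-Phe-3-1-/- line, the tRNA-Phe-2-1-/- line or the line tRNA-Phe-1-1-/-), with 3 replicates (A, B and C) of each of the 4 genotypes in each tissue and 24 samples in all. Per the study's methods the mice were 10-week-old males on a C57BL/6N background, fed normal chow, and each knockout line goes back to one deletion made with a single CRISPR-Cas9 guide and bred for many generations before sampling. A line therefore stands for one founding deletion, and the same WT samples served all 3 lines of a tissue. The tRNA-Phe genes themselves are not among the genes measured, so the deletions could not be checked here. The question was whether losing one tRNA gene was accompanied by changes in the messenger RNAs of the tRNA-making machinery.

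The depth of a brain sample was 30365760 to 46225360 reads and that of a liver sample 32276896 to 51584522, and the tested members were covered by at least 82 reads in every brain and at least 30 in every liver. The tissues carried their own markers: the summed level of 5 neuronal genes was 73863 to 148083 normalised counts in the brains and 51.1 to 456 in the livers. The summed level of 5 hepatocyte genes was 1996472 to 3321126 in the livers and 32.2 to 50424 in the brains, where one of them, Ttr, is also a choroid plexus gene. In whole tissue, fewer cells of a type and less RNA per cell cannot be told apart. No pair of replicates of a group agreed within counting noise (the lowest chi-square per gene was 14.1).

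The upstream sequences below lie just before the annotated start of 4 members, and no start of transcription was measured here. The 4 members are Polr1c and Clp1, which were higher in the tRNA-Phe-1-1-/- liver, and Polr3g and Polr3gl, which encode alternative forms of the same polymerase III subunit. RefSeq windows on GRCm38.p6 matched 38 of the 48 members, and the bases shown end just before the first transcribed base of the annotation. Capitals mark matches on either strand to the GC box, spelled GGGCGG, to the CCAAT box, to the E-box, spelled CACGTG, or to the core of ETS factor sites, spelled CCGGAAG. The TATA box was searched as TATAAA and was not found in these 4. None of these motifs overlapped in the sequences shown. The 34 bases of Polr1c (chr17:46248046-46248079, minus strand) are all that lies between it and the divergent gene Yipf3, and they hold none of the 5 motifs:
Polr1c: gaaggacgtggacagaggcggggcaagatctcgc
Clp1, chr2:84727288-84727537, minus strand: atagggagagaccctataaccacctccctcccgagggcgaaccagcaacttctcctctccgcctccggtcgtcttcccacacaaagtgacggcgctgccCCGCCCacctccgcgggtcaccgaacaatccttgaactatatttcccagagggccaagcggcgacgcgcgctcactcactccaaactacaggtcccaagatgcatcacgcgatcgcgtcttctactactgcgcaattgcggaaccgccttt
Polr3g, chr13:81711014-81711263, minus strand: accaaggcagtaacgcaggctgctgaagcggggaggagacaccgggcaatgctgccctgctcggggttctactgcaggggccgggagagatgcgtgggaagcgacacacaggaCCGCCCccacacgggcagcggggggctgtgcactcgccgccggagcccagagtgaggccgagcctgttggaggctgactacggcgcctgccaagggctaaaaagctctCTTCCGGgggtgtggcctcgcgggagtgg
Polr3gl, chr3:96594182-96594431, minus strand: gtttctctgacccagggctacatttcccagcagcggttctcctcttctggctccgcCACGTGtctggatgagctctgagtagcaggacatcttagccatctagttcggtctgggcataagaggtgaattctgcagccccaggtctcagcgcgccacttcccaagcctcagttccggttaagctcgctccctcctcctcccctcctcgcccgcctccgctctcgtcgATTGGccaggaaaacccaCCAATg

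Polr3g held a GC box and an ETS core, whereas Polr3gl held an E-box and a pair of CCAAT boxes within its last 24 bases. In the windows of 250 bases of the 38 members, a GC box was found in 57.9% and in 32.7% of all 32851 windows, and a TATA box in 2.63% and 12.4%. A CCAAT box was found in 21.1% of the members against 33.8% of all windows, an E-box in 13.2% against 6.02% and an ETS core in 18.4% against 6.91%. These are matches of letters and not measured binding. For the members only the first window of each gene was counted, and for the background every window, so the sets are not alike. The windows of Pop5 and Polr1d lie inside the gene.

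In the liver of tRNA-Phe-1-1-/- mice, 5 of the 47 tested members were higher than in WT and none was lower (adjusted p under 0.05, limma with Benjamini-Hochberg adjustment over all 15856 genes tested). They were the polymerase III subunits Crcp, Polr1c and Polr3d, the RNA kinase Clp1 of the tRNA splicing complex and Pop5 of RNase P, by 1.31- to 1.69-fold. The members called were 10.6% of those tested. Across all genes tested in this comparison 17.3% passed the same threshold in either direction and 8.27% did so with a higher level, so the members' share was below the first and above the second. There 12 of the 47 members had an unadjusted p under 0.05, beside 5044 of all 15856 genes. In the liver, the tRNA-Phe-2-1-/- line had no member past the threshold (0 of 47), where 0.132% of all genes did. The tRNA-Phe-3-1-/- line had none either (0 of 47), where 0.883% of all genes did. At an unadjusted p under 0.05 there were 6 and 8 of the 47 members, beside 2365 and 2550 of all 15856 genes. On reads recovered from the normalised counts edgeR called no member in these lines (0.126% and 0.883% of all genes), and DESeq2 called 1 in each, Polr1d, where it called 3.14% and 4.85% of all genes.

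**Figure D1:**
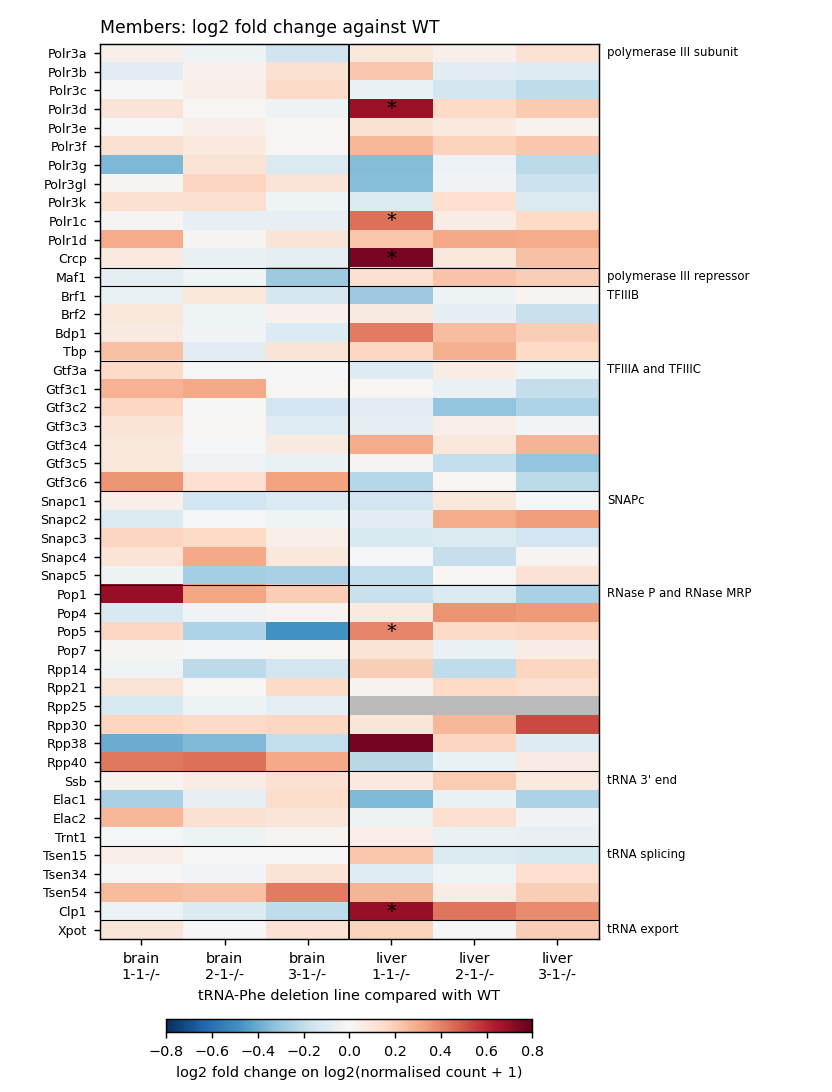
Log2 fold change of each of the 48 members against WT, by knockout line (columns) and gene (rows, grouped by role), on the log2(normalised count + 1) scale. Asterisks mark the 5 members with an adjusted p under 0.05, all in the tRNA-Phe-1-1-/- liver; grey marks Rpp25, which was not tested in the liver.

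Crcp, a small subunit of the polymerase that pairs with the stalk protein of the enzyme, had the largest called rise. Its level was 555, 486 and 389 normalised counts in the WT livers and 782, 710 and 923 in the tRNA-Phe-1-1-/- livers (Ensembl ENSMUSG00000025532.13; chromosome 5, 130029306 to 130060787). The groups did not overlap, and the log2 fold change was 0.76 ± 0.14 (SE), a 1.69-fold difference with an adjusted p of 0.00488 in limma. The tRNA-Phe-2-1-/- livers held 467, 489 and 548 and the tRNA-Phe-3-1-/- livers 506, 549 and 615 normalised counts. Both of these lines lay below every tRNA-Phe-1-1-/- liver, and Crcp passed in the direct comparisons too (0.68 ± 0.14 against tRNA-Phe-2-1-/-, limma adjusted p = 0.0102; 0.53 ± 0.14 against tRNA-Phe-3-1-/-, limma adjusted p = 0.0305). The last of these calls was lost when tRNA-Phe-1-1-/- replicate A or C or tRNA-Phe-3-1-/- replicate A or B was left out (fold changes of 0.42 to 0.54). In the brain Crcp ranged from 472 to 611 normalised counts over the 12 samples and passed in no comparison.

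Polr1c, a subunit that RNA polymerases I and III share, was 485, 441 and 442 normalised counts in the WT livers and 602, 624 and 628 in the tRNA-Phe-1-1-/- livers (ENSMUSG00000067148.15; chromosome 17, 46243920 to 46248045). Every knockout liver of this line lay above every other liver of the series, and the log2 fold change against WT was 0.44 ± 0.09 (limma adjusted p = 0.00873). The rise held in every fit that left out one of these samples. Against tRNA-Phe-2-1-/- (455, 448 and 525) the difference was 0.38 ± 0.09 (limma adjusted p = 0.0190), and it was no longer called without tRNA-Phe-1-1-/- replicate B or tRNA-Phe-2-1-/- replicate A or B (0.34 to 0.37). The tRNA-Phe-3-1-/- livers held 534, 514 and 477 normalised counts.

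Polr3d belongs to the pair of subunits that terminate transcription and restart the polymerase. It was found at 205, 178 and 173 normalised counts in the WT livers and at 340, 326 and 242 in the tRNA-Phe-1-1-/- livers (ENSMUSG00000000776.13; chromosome 14, 70438748 to 70443471). It rose by a log2 fold change of 0.69 ± 0.18 (limma adjusted p = 0.0230), with replicate C of the knockout line nearest to WT. The call was lost without WT replicate B or C or tRNA-Phe-1-1-/- replicate A or B (0.60 to 0.67). The other lines reached 225, 161 and 242 and 198, 237 and 207 normalised counts, with no call.

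Clp1 phosphorylates RNA 5′ ends, binds the tRNA splicing endonuclease and also takes part in the 3′ end cleavage of messenger RNA. Its level was 403, 390 and 328 normalised counts in the WT livers and 740, 509 and 583 in the tRNA-Phe-1-1-/- livers (ENSMUSG00000027079.15; chromosome 2, 84723122 to 84727287). The difference was 0.69 ± 0.17 (limma adjusted p = 0.0178) and was not called without WT replicate C (0.60) or tRNA-Phe-1-1-/- replicate A (0.55). In the tRNA-Phe-2-1-/- livers Clp1 was 532, 470 and 505, above every WT liver (0.43 ± 0.17, limma adjusted p = 0.283). The tRNA-Phe-3-1-/- livers, at 382, 586 and 505, overlapped WT.

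Pop5, a protein of both RNase P, which cuts the 5′ leader from tRNA, and RNase MRP, which cuts ribosomal RNA, was 556, 634 and 493 normalised counts in the WT livers. In the tRNA-Phe-1-1-/- livers it was 782, 733 and 685 (ENSMUSG00000060152.14; chromosome 5, 115235588 to 115240972), a difference on the log2 scale of 0.39 ± 0.11 (limma adjusted p = 0.0278). This call was lost without WT replicate A or C or tRNA-Phe-1-1-/- replicate A or B (0.30 to 0.39), and when only these 2 groups were fitted (adjusted p = 0.0847). Pop5 was the 1 of the 9 tested RNase P and RNase MRP members that was called.

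**Figure D2:**
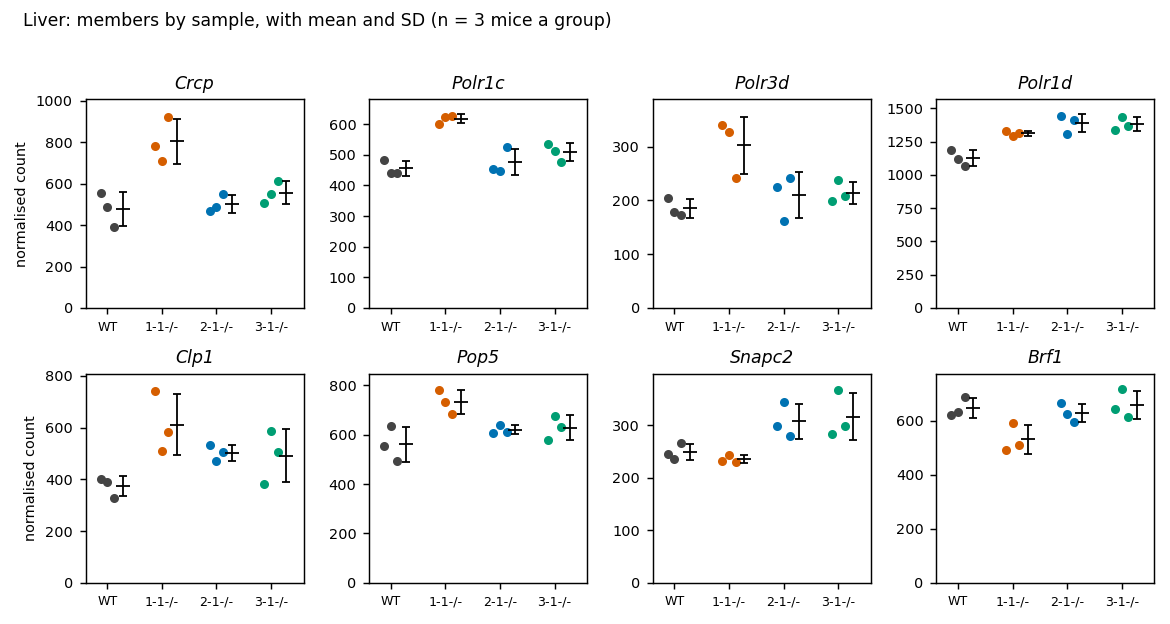
Normalised counts of 8 members in each liver sample (points), by genotype, with the mean and SD of the 3 samples of each group (bars). The tRNA-Phe-1-1-/- livers lie above every WT liver for Crcp, Polr1c, Polr3d, Polr1d, Clp1 and Pop5 and below every WT liver for Brf1, which was not called.

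Polr1d, the partner of Polr1c in the assembly platform of polymerases I and III, was the member that stood apart from WT in all 3 lines. It was 1186, 1123 and 1066 normalised counts in the WT livers, 1331, 1289 and 1316 in the tRNA-Phe-1-1-/- livers, 1444, 1310 and 1412 in the tRNA-Phe-2-1-/- livers and 1338, 1437 and 1370 in the tRNA-Phe-3-1-/- livers (ENSMUSG00000029642.11; chromosome 5, 147076715 to 147111361). Every knockout liver lay above every WT liver. In the test of any difference among the 4 genotypes it passed (limma F-test, adjusted p = 0.0334), together with Crcp (0.0137) and Polr1c (0.0252), 3 of 47 members where 17% of all genes passed. No single comparison with WT was called for Polr1d: the log2 fold changes were 0.22 ± 0.07, 0.30 ± 0.07 and 0.30 ± 0.07 in the order of the lines above, with limma adjusted p-values of 0.0561, 0.112 and 0.0832. The first of these was called with a filter at a mean of at least 50 (limma adjusted p = 0.0448), and DESeq2 called all 3. Because the WT livers are shared, these are not 3 independent differences. All 3 calls of the F-test were lost when tRNA-Phe-1-1-/- replicate A was left out, and only that of Crcp was kept without WT replicate B or C.

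Snapc2, a subunit of the complex that starts transcription of small nuclear RNA genes, was the member called in the other direction. It was 231, 244 and 230 normalised counts in the tRNA-Phe-1-1-/- livers and 283, 368 and 299 in the tRNA-Phe-3-1-/- livers (ENSMUSG00000011837.4; chromosome 8, 4253102 to 4256220). The difference was -0.42 ± 0.13 (limma adjusted p = 0.0464), and it was kept in 1 of the 6 fits that left out one sample, the one without tRNA-Phe-3-1-/- replicate A. The WT livers (245, 236 and 267) and the tRNA-Phe-1-1-/- livers overlapped, whereas all livers of the other lines lay above WT, with no call. In this comparison of lines 2 of 47 members passed, where 16.1% of all genes did, and against tRNA-Phe-2-1-/- 2 of 47, where 15.9% did. Between the livers of these other lines no member passed, where 0% of all genes did. There 1 of 47 members had an unadjusted p under 0.05, beside 1059 of all 15856 genes.

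By role, the polymerase list was the largest and held 3 of the 5 calls in the tRNA-Phe-1-1-/- liver, among 12 subunits tested. The tRNA splicing list held 1 among 4 tested, and the RNase P and RNase MRP list 1 among 9. Of all genes, 17.3% were called in either direction and 8.27% were called higher. Whether a role differed from these shares was not tested. Of the 12 subunits 6 stood wholly above WT and none wholly below. Of all genes, 34.8% stood wholly apart from WT and 17.2% wholly above it. The median log2 fold change of the subunits was 0.17. Polr3f, a subunit that contacts TFIIIB, was one of the 6, at 669 ± 17.2 against 557 ± 45.7 normalised counts (SD, n = 3), with 0.27 ± 0.08 and a limma adjusted p of 0.0513, and it was called with a filter at a mean of at least 50 (limma adjusted p = 0.0396), without WT replicate B and by DESeq2. The alternative subunits Polr3g and Polr3gl had estimates below WT that were not called (lowest limma adjusted p = 0.147 and 0.326 over the 3 lines).

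None of the 4 TFIIIB members passed in the tRNA-Phe-1-1-/- liver, and they did not move one way. Bdp1 was 1225, 1229 and 1201 normalised counts in WT and 1552, 1722 and 1608 in the knockout, which did not overlap (0.42 ± 0.14, limma adjusted p = 0.0656). It was called when only these 2 groups were fitted (limma adjusted p = 0.0222) and by DESeq2. Brf1, the TFIIIB subunit used at tRNA genes, was 621, 634 and 689 in WT and 490, 593 and 512 in the knockout, again without overlap but in the other direction (-0.29 ± 0.10, limma adjusted p = 0.0711). Brf1 was called without tRNA-Phe-1-1-/- replicate B (-0.37, limma adjusted p = 0.0363) and under quantile normalisation (-0.33, limma adjusted p = 0.0492). Tbp, which all 3 RNA polymerases use, was 389, 393 and 348 in WT and 418, 349 and 513 in the knockout.

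The repressor Maf1 was 565, 575 and 711 normalised counts in the WT livers and 622, 620 and 782 in the tRNA-Phe-1-1-/- livers, groups that overlapped (lowest limma adjusted p over the 3 lines, 0.543). None of the 7 TFIIIA and TFIIIC members and none of the 5 SNAPc members passed against WT in any line. Gtf3c2, a TFIIIC subunit, was 1423, 1212 and 1542 in WT and 1171, 1077 and 1096 in the tRNA-Phe-2-1-/- livers, below every WT sample (-0.31 ± 0.11, limma adjusted p = 0.228).

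The enzymes that finish the 3′ end and the exporter passed in no comparison with WT in the liver. There the 95% intervals of the fold change against WT, over all 3 lines, ran from -0.20 to 0.29 for Elac2, from -0.09 to 0.37 for Ssb, from -0.32 to 0.31 for Trnt1 and from -0.40 to 0.58 for Xpot on the log2 scale. Xpot was the most variable of them, at 3905, 3091 and 2655 normalised counts in WT and 3723, 2794 and 4456 in the tRNA-Phe-1-1-/- livers. The smallest adjusted p against WT among these 4 was 0.267 (Ssb, tRNA-Phe-2-1-/-, limma). Elac1, a relative of Elac2, had the lowest adjusted p of the 3′ end members, at 385, 338 and 422 normalised counts in WT and 306, 249 and 346 in the tRNA-Phe-1-1-/- livers, groups that overlapped (-0.35 ± 0.15, limma adjusted p = 0.142).

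In the brain, no member was called in any knockout line against WT (0 of 48 in each), where 1.05%, 0% and 0% of all 19228 genes tested were called by limma. These and the following values are in the order of the names (the line without tRNA-Phe-1-1 first and that without tRNA-Phe-3-1 last). At an unadjusted p under 0.05 there were 6, 3 and 2 of the 48 members, beside 3063, 1071 and 2373 of all 19228 genes. On recovered reads edgeR called 0 in each line (0.973%, 0% and 0% of all genes), and DESeq2 called 3, 0 and 0 (4.56%, 0.109% and 1.94%). The 95% interval of the fold change lay within 1.5-fold of WT in either direction for 41, 43 and 41 of the 48 members, and for 31, 39 and 34 of the 47 in the liver. These intervals were not adjusted for the number of genes and lines, so some of them may miss the true change. The median log2 fold change of the members was 0.07, 0.00 and 0.02 over the brains and 0.07, 0.06 and 0.06 over the livers, beside medians over all genes of 0.00, 0.00 and 0.00 and of -0.01, 0.00 and 0.01. The median standard error was 0.11 in the brain and 0.15 in the liver.

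**Figure D3:**
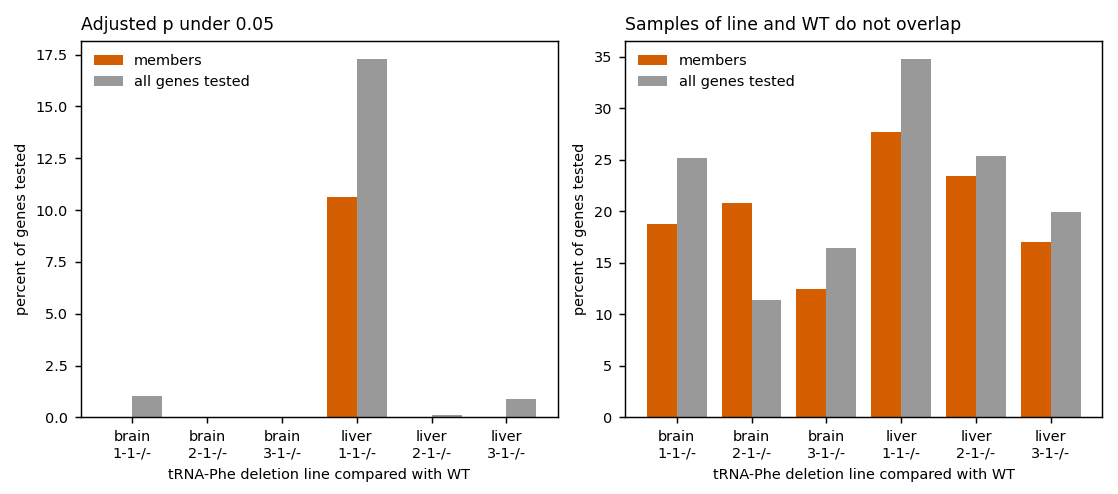
Share of members (orange) and of all genes tested (grey), in percent, that had an adjusted p under 0.05 (left) or whose 3 knockout and 3 WT samples did not overlap (right), by tissue and knockout line. In the tRNA-Phe-1-1-/- liver 10.6% of members were called, below the 17.3% of all genes; only in the tRNA-Phe-2-1-/- brain was the share of members without overlap above that of all genes.

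Groups that stood wholly apart were counted as well. The 3 knockout samples did not overlap the 3 WT samples for 9, 10 and 6 of the 48 members in the brain, beside 25.2%, 11.4% and 16.4% of all genes. In the liver they did not overlap for 13, 11 and 8 of the 47 members, beside 34.8%, 25.4% and 19.9% of all genes. The 13 in the tRNA-Phe-1-1-/- liver were 12 above WT, 25.5% of members beside 17.2% of all genes, and 1, Brf1, below.

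The one brain call was Pop5. It was 1015, 1122 and 1042 normalised counts in the tRNA-Phe-1-1-/- brains and 849, 536 and 673 in the tRNA-Phe-3-1-/- brains, a log2 difference of 0.65 ± 0.14 (limma adjusted p = 0.0417). The WT brains (993, 936 and 904) lay between the lines, above the tRNA-Phe-2-1-/- brains (847, 722 and 818) and above every tRNA-Phe-3-1-/- brain (-0.48 ± 0.14, limma adjusted p = 0.229). The call was lost in 5 of the 6 fits that left out one sample (0.49 to 0.68), the exception being tRNA-Phe-3-1-/- replicate A, so it rests on a narrow margin. It was 1 of 48 members, where 2.11% of all genes were called between these lines. Compared with the tRNA-Phe-2-1-/- line, the tRNA-Phe-1-1-/- brains gave no call among the members (0.53% of all genes did). There 4 members had an unadjusted p under 0.05, beside 2631 of all 19228 genes. The brains of the remaining pair of lines gave none either (0% of all genes), with 3 members unadjusted beside 1910 of all 19228 genes. The F-test over the 4 genotypes called none (0.634% of all genes), with 7 members unadjusted beside 3387 of all 19228 genes.

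Polr1d was the member nearest to a call in the tRNA-Phe-1-1-/- brain, at 1173, 1353 and 1331 normalised counts against 1008, 1066 and 1059 in WT (0.30 ± 0.08, limma adjusted p = 0.0920). The tRNA-Phe-2-1-/- brains (1103, 1043 and 1037) overlapped WT and the tRNA-Phe-3-1-/- brains (1186, 1105 and 1081) lay just above it. Pop1, the largest protein of RNase P and RNase MRP, was 364, 584 and 385 in the tRNA-Phe-1-1-/- brains and 284, 283 and 237 in WT (0.70 ± 0.19, limma adjusted p = 0.107). Replicate B of the knockout was far above the other samples of its group.

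Elac2, which cuts the 3′ trailer from tRNA, was 974, 995 and 1052 normalised counts in the tRNA-Phe-1-1-/- brains and 807, 874 and 834 in WT, groups that did not overlap (0.26 ± 0.07, limma adjusted p = 0.115). Elac1 did not overlap either in the same brains, at 785, 741 and 776 against 961, 848 and 947 (-0.26 ± 0.11, limma adjusted p = 0.275). Counted with DESeq2 on the reads recovered from the normalised counts, Polr1d, Pop1 and Elac2 passed in this comparison, 3 of 48 members, where 4.56% of all genes passed.

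Maf1 was lowest in the tRNA-Phe-3-1-/- brains, at 1503, 1521 and 1345 normalised counts against 1682, 1842 and 1825 in WT, without overlap (-0.29 ± 0.08, limma adjusted p = 0.226). The tRNA-Phe-1-1-/- brains (1601, 1778 and 1704) and the tRNA-Phe-2-1-/- brains (1620, 1910 and 1702) overlapped WT. Gtf3c1, the TFIIIC subunit that binds the internal promoter, was 6432, 7054 and 6105 in the tRNA-Phe-2-1-/- brains and 4940, 5879 and 5071 in WT (0.30 ± 0.11, limma adjusted p = 0.892). Snapc4, the DNA-binding subunit of SNAPc, was 1403, 1404 and 1401 against 1017, 1246 and 1157 in the same comparison (0.30 ± 0.11, limma adjusted p = 0.892). Tsen54, a subunit of the tRNA splicing endonuclease, was 271, 180 and 138 in the tRNA-Phe-3-1-/- brains and 163, 110 and 157 in WT, groups that overlapped.

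**Figure D4:**
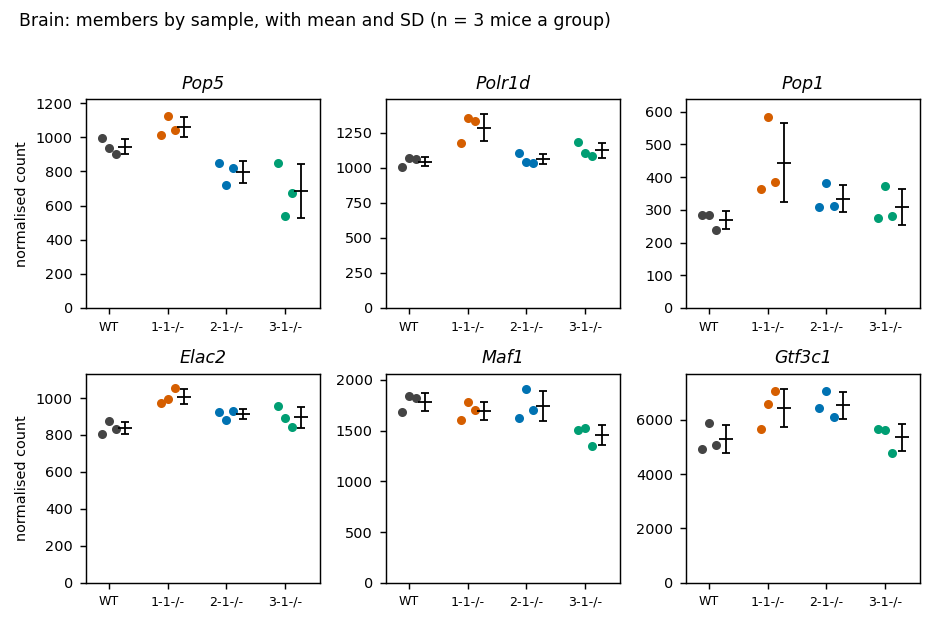
Normalised counts of 6 members in each brain sample (points), by genotype, with the mean and SD of the 3 samples of each group (bars). Polr1d, Pop1 and Elac2 lie above WT in the tRNA-Phe-1-1-/- brains and Maf1 lies below WT in the tRNA-Phe-3-1-/- brains; none of these was called against WT, and Pop5 was called in the tRNA-Phe-1-1-/- brains against those of the tRNA-Phe-3-1-/- line.

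Ssb, Trnt1 and Xpot also passed in no comparison with WT in the brain. The 95% intervals of the fold change against WT over the 3 lines ran from -0.12 to 0.27 for Ssb, from -0.21 to 0.20 for Trnt1 and from -0.32 to 0.44 for Xpot on the log2 scale, and the smallest limma adjusted p among these was 0.507. Brf1 (lowest limma adjusted p = 0.555) and Bdp1 (0.675) did not follow their liver pattern of non-overlapping groups, since in the tRNA-Phe-1-1-/- brain both overlapped WT. The difference between the tissues was not tested.

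Members that come as pairs of related genes were compared within a sample, where the scaling of the library cancels. These pairs were chosen after their values had been seen, and the ratio of normalised counts is not corrected for transcript length, so it is set only against the same ratio elsewhere. Polr3g, the form known from stem cells and dividing cells, was 0.456 to 0.784 times Polr3gl in the 12 brains and 1.79 to 2.96 times in the 12 livers, with no overlap. The ratio of Elac1 to Elac2 was 0.737 to 1.44 in the brains and 0.269 to 0.433 in the livers, again without overlap, and that of Brf1 to Brf2 was 2.25 to 3.21 and 2.46 to 4.05.

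Within a tissue the ratios were compared between each line and WT by 18 two-sided exact permutation tests, which cannot give a p under 0.1 with 3 samples against 3. No adjusted p was below 0.6. The groups did not overlap for Brf1 to Brf2 in the tRNA-Phe-1-1-/- liver, at 2.46, 2.65 and 2.96 against 3.53, 3.56 and 3.24 in WT (exact p = 0.1), nor in the tRNA-Phe-3-1-/- liver, where the ratio was above WT at 4.04, 3.77 and 4.05 (exact p = 0.1). Nor did they overlap for Elac1 to Elac2 in the tRNA-Phe-1-1-/- brain, at 0.806, 0.744 and 0.737 against 1.19, 0.970 and 1.14 (exact p = 0.1). For Polr3g to Polr3gl the tRNA-Phe-1-1-/- livers, at 2.24, 2.48 and 2.32, lay inside the WT range of 2.07, 2.13 and 2.96.

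**Figure D5:**
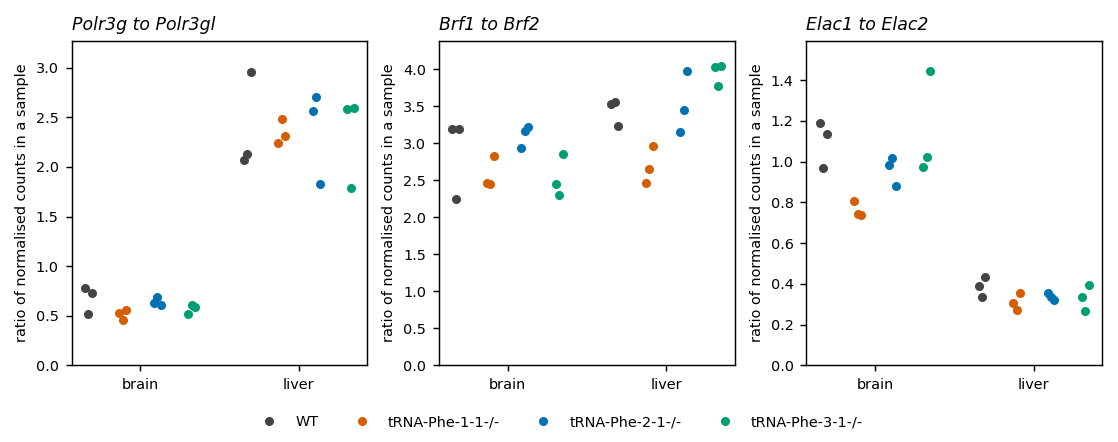
Ratio of the normalised counts of paired members within each sample (points), by tissue and genotype (colour). The Polr3g to Polr3gl ratio is 0.456 to 0.784 in the brains and 1.79 to 2.96 in the livers, and the tRNA-Phe-1-1-/- livers lie below WT for Brf1 to Brf2 while the tRNA-Phe-3-1-/- livers lie above it.

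Genes of the same pathway outside the members gave one call against WT in 6 comparisons. Among 6 further polymerase III subunits, Polr2h, which all 3 RNA polymerases share, was 294 ± 16.0 normalised counts (SD, n = 3) in the tRNA-Phe-1-1-/- livers and 212 ± 11.4 in WT (0.47 ± 0.12, limma adjusted p = 0.0234). By limma 17.3% of all genes were called in that comparison. None of 9 regulators of the polymerase (among them Mtor, Myc and Trp53), none of 8 further tRNA splicing and ligation genes and none of 7 genes of mitochondrial RNase P and other end-processing or export steps was called by limma in any line or tissue. Over these lists, lines and tissues 31 of 210 tests had an unadjusted p under 0.05, edgeR called 1 and DESeq2 6. Beside them, 5044, 2365 and 2550 of all 15856 genes in the liver had such an unadjusted p, in the order of the line names. In the brain 3063, 1071 and 2373 of all 19228 genes did. In the tRNA-Phe-1-1-/- liver, where its call lay, edgeR called 17% of all genes. DESeq2 called 22%, 3.14% and 4.85% of all genes in the livers and 4.56%, 0.109% and 1.94% in the brains. The 6 calls of DESeq2 on these lists were Polr2h, the regulators Trp53 in the tRNA-Phe-2-1-/- liver (-0.51 ± 0.14, adjusted p = 0.0181) and Rptor in the tRNA-Phe-3-1-/- liver (-0.36 ± 0.09, adjusted p = 0.00258), and 3 calls of Y RNAs. Of 8 genes that the polymerase transcribes, 5 rows were found, for Rpph1, Rmrp (which has a second row), Rny1 and Rny3, and none was called by limma. The Y RNAs Rny1 and Rny3, small RNAs that bind the Ro protein and are singled out here after their values were seen, gave log2 differences of -1.24 ± 0.32 (SE, limma adjusted p = 0.0968) and -1.27 ± 0.31 (SE, limma adjusted p = 0.0831) in the tRNA-Phe-3-1-/- liver, and DESeq2 on recovered reads called both (adjusted p = 0.0139 and 0.00295). In the brains of that line the estimates lay on the other side of WT without a call (0.33 ± 0.22 and 0.42 ± 0.17, limma adjusted p = 0.582 and 0.354). In the tRNA-Phe-1-1-/- brain they were -0.60 ± 0.22 and -0.56 ± 0.17 (limma adjusted p = 0.207 and 0.142), and DESeq2 called Rny3 (adjusted p = 0.0427). Rmrp shares its symbol between rows and is uncertain.

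Other cell types and states moved with the tRNA-Phe-1-1-/- liver. The 6 acute phase genes were all called higher, with a summed level of 429045 to 785766 normalised counts against 269698 to 281675 in WT, and the 4 erythroid genes all lower, at 8782 to 10216 against 15516 to 22036. The summed level of the 5 hepatocyte genes was 1996472 to 2505107 against 2579017 to 3235580, groups that did not overlap. None of these 5 was called by limma, 1 was by edgeR and 2 were by DESeq2. This sum was not particular to the line, since the tRNA-Phe-2-1-/- livers also lay wholly below WT, at 2157721 to 2397083. The summed level of 4 liver endothelial genes was 6193 to 7844 against 7316 to 7866, groups that overlapped, although Pecam1 and Lyve1 among them were called higher, and Cldn5 of the brain endothelial list was called lower. The stellate cell gene Dcn was called higher and the B cell gene Ms4a1 lower. No gene of these lists was at 0 in all samples. In the tRNA-Phe-1-1-/- brain, the summed level of 5 oligodendrocyte genes was 33577 to 61958 against 87618 to 103233, and 1 of them (Opalin) was called lower. The 4 erythroid genes summed to 7471 to 9501 against 15184 to 27844, with no call by limma and 4 by DESeq2. Their sum was also low in the tRNA-Phe-2-1-/- brains, at 6524 to 15376, which overlapped WT, with no call by limma or DESeq2. In the tRNA-Phe-1-1-/- brain the 4 choroid plexus genes summed to 191 to 567 against 627 to 13027. None of them was called by limma and 1 was by DESeq2, and the other lines ranged from 169 to 52332. The endothelial gene Cldn5 was called lower and the acute phase gene Lcn2 higher in the tRNA-Phe-1-1-/- brains. In the tRNA-Phe-3-1-/- livers the 8 proliferation genes summed to 425 to 1614 against 368 to 393 in WT. None of these was called by limma and 3 were by DESeq2. The part of these differences in the member results was not tested.

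Tests on the recovered reads gave the same 5 liver members as limma with edgeR, and 8 with DESeq2, for tRNA-Phe-1-1-/- against WT. The background was 17% of all genes with edgeR (8.21% higher) and 22% with DESeq2 (10.8% higher). The 3 added by DESeq2 were Polr1d, Polr3f and Bdp1, and all calls were of higher levels. Without WT replicate C, the shallowest liver, or without tRNA-Phe-1-1-/- replicate A, 2 of the 5 limma calls remained, Crcp and Polr1c.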

How the data were processed

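RNA of 24 samples (4 genotypes, brain and liver, 3 replicates) was sequenced by the authors on an Illumina NovaSeq. Per the study's methods they trimmed reads with Trim Galore and cutadapt, aligned them with STAR to GRCm38.p6, quantified transcripts with Salmon with corrections for sequence and GC bias, and scaled gene estimates with DESeq2. The deposited tables hold this signal, a normalised count: an estimated count divided by one size factor per sample, made separately in each tissue. The authors' tables of comparisons (fold changes and s-values) were not used.

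Within a column the normalised counts are whole multiples of one step, and 100% of values gave whole reads at a tolerance of 0.001. The recovered reads gave the depth and the added count tests.

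The log2 of the normalised count plus a pseudocount of 1 was tested with limma 3.58.1 (R 4.3.3, variance trend), fitted per tissue over 12 samples and all genes with a mean of at least 10, two-sided, with Benjamini-Hochberg adjustment within each comparison and a threshold of 0.05. Fold changes on this scale understate low genes. The procedure was tested on simulated data, with changes larger than those of the members called and the same dispersion in every gene. It therefore does not show how well changes of the size called here are recovered. Alternatives were pseudocounts of 0.1 and 5, a minimum mean of 50 or none, no variance trend, quantile normalisation, only the groups compared, the replicate letter as a block, edgeR 4.0.16 (quasi-likelihood) and DESeq2 1.42.0 on recovered reads, and leaving out each sample.

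Members and lists were chosen with earlier results of these data known. Named members were those past the threshold, the member with the lowest unadjusted p against WT in each role and tissue, and Maf1, Brf1, Polr3g, Polr3gl, Ssb, Elac2, Trnt1 and Xpot; Polr3f, Elac1 and Brf2, Rpp25, and the members in the closing observations were named after their values were seen. Symbols came from GENCODE vM39 by Ensembl identifier (93.2% matched), positions and promoter windows from RefSeq on GRCm38.p6. The labels do not say whether a brain and a liver with the same letter came from one animal. Deviations from the group means of same-letter samples of different genotypes had a median correlation of 0.03 (brain) and -0.03 (liver). All 3 same-letter pairs correlated over 0.1 only when tRNA-Phe-2-1-/- brains were set beside those of tRNA-Phe-3-1-/- mice (0.13, 0.21 and 0.49). The main fit treated letters as pairs in no comparison, and the block on letters was an alternative for all of them. Per the study's methods, WT and homozygous mice were littermate-matched, and the mice used came from different litters. The labels do not say which samples shared a litter, so a pairing by litter could not be fitted. The p-values measure the spread between these samples.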

Additional observations from a re-analysis of the deposited data

How the results depend on the processing

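The counts of called members rested on few calls, and the share of all genes called under the same setting follows each count. For tRNA-Phe-1-1-/- against WT in the brain the count of 0 became 1 with the replicate block (Pop1; 0.9% of all genes) and 3 with DESeq2 (4.56%), and DESeq2 also gave 1 against tRNA-Phe-2-1-/- (3.5%), 2 against tRNA-Phe-3-1-/- (6.87%) and 2 for any difference among genotypes (8.25%). The 1 brain call against tRNA-Phe-3-1-/- became 0 with no filter (0.647%), quantile normalisation (1.79%), no variance trend (1.23%), only the groups compared (0.0832%) or edgeR (1.83%), and was 0 to 1 when one sample was left out (0.265% to 2.14%). In the liver, tRNA-Phe-1-1-/- against WT gave 8 with DESeq2 (22%), 7 with a mean of at least 50 (Polr1d and Polr3f added; 21.3%), 6 with quantile normalisation (Brf1 added; 17.4%), 5 with only the groups compared (Bdp1 in place of Pop5; 11.5%) and 2 to 5 without one sample (9.29% to 16.2%). DESeq2 gave 1 for each of the other lines (Polr1d; 3.14% and 4.85%) and 4 against tRNA-Phe-2-1-/- (21.2%), where leaving out a sample gave 1 to 3 (7.24% to 16.2%). The 2 liver calls against tRNA-Phe-3-1-/- became 1 with no filter (7.21%), 4 with a mean of at least 50 (20.4%), 0 with the replicate block (13.6%), 0 with only the groups compared (5.94%), 5 with DESeq2 (21.8%) and 0 to 3 without one sample (9.52% to 15.6%). The 3 of the F-test became 1 with the replicate block (12.8%), 7 with DESeq2 (29%) and 0 to 4 without one sample (8.49% to 17.2%). The cause was not tested. Over all genes the replicate block gave 2347 liver calls for tRNA-Phe-1-1-/- against WT in place of 2751, 1 in place of 21 for tRNA-Phe-2-1-/- and 9 in place of 140 for tRNA-Phe-3-1-/-. Between tRNA-Phe-2-1-/- brains and those of the tRNA-Phe-3-1-/- line, where same-letter samples did correlate, the block and the fit without it both gave 0 calls over all genes, with 2083 genes at an unadjusted p under 0.05 under the block, while DESeq2 gave 166. The labels do not say whether samples with the same letter shared a litter or a batch, and this was not tested. Of 672 refitted fold changes (42 results) none changed sign, 38 lost a call and 15 gained one. These 42 were only those with an unadjusted p under 0.05 against WT or called between lines. They were refitted on the same or nearly the same samples, so a kept sign was close to given and does not speak for the other members. Depth left the tested members with 30 or more reads in every sample, and the spread between 3 samples set the precision.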

Other observations

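The members that varied most among samples were subunits of RNase P and RNase MRP. Rpp38, which binds kink-turns in the RNA of these enzymes, was the least abundant tested member in both tissues and ranged from 28.8 to 103 normalised counts over the livers, at 46.9, 58.3 and 49.3 in WT and 96.0, 103 and 68.6 in tRNA-Phe-1-1-/- (0.77 ± 0.31, limma adjusted p = 0.117). In the brain the same gene was 174, 170 and 155 in WT and 119, 103 and 162 in tRNA-Phe-1-1-/-, groups that overlapped (-0.40 ± 0.18, limma adjusted p = 0.302). At 30 to 117 reads a liver, this gene has the widest counting error of the tested members. Rpp40 had the widest spread in the brain, where the highest sample was 3.39 times the lowest.

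The members that varied least were Polr3e, a subunit that works with Polr3d, and Trnt1 in the brain (for Polr3e the highest sample was 1.13 times the lowest). In the liver they were Elac2 and Snapc3, at 1.23 and 1.24 times.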
